A study of Mus musculus with 2 samples.

Results

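Genes of Wnt and beta-catenin signalling were examined in endothelial cells of the normal mouse brain. The members were chosen by name and not by their values, though with earlier results of these data known. They were 55 ligands, receptors, transducers, transcription factors, feedback inhibitors and secreted antagonists of the pathway. Of these, 54 had a probe set annotated to them alone, among 18194 genes in all, and *Tcf7* had none in the annotation used here. The cells were sorted from the brain vasculature of C57BL/6 mice by antibodies to CD31 and to CD133, the protein of *Prom1*. CD31+ CD133- cells (Prom1-) were measured on 1 Affymetrix array and CD31+ CD133+ cells (Prom1+) on another. Neither population was treated or carried a transgene according to the labels, and neither the age nor the number of mice is stated in the sources.

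In Wnt signalling, a secreted ligand binds a Frizzled receptor and the coreceptor LRP5 or LRP6, which stops a destruction complex built on APC and AXIN from marking beta-catenin for degradation. Beta-catenin then enters the nucleus and acts with TCF and LEF factors, and several of the genes it turns on are themselves inhibitors of the pathway. In the brain, Wnt7a and Wnt7b from neural cells act on endothelium through the coreceptors Gpr124 and Reck, and Norrin acts through Fzd4 and Tspan12, and both signals are needed for the growth of brain vessels and for the blood-brain barrier.

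Signals are given in array medians, that is, as multiples of the median signal of the same array. A signal under a floor of 1.67 array medians was not read as measured. Since each population was measured once, no difference has a replicate check or a test, and each describes these 2 arrays alone. Differences were counted by a rule of at least 2-fold between floored signals, and where 1 of the signals was below the floor the fold is only a bound. As a yardstick within this pair, log2 ratios of probe sets of the same gene had an SD of 0.54 over 3930 genes. It holds no spread between replicate samples. The arrays were also shifted against each other. Where the mean log2 signal was 3 to 4, the median log2 ratio of Prom1+ over Prom1- was 0.87, and it was -0.23 between 7 and 8. Most member ratios are therefore set beside the median of the 1000 probe sets nearest in signal, and percentiles are among these. The arrays are named by their labels, since *Prom1* itself read 196 array medians under the label Prom1- and 159 under Prom1+. Its log2 ratio of -0.30 was -0.84 with trimmed mean scaling and 0.73 with the hybridization controls set equal. These controls, added at hybridization and not from the mouse, had a median log2 ratio of -1.02. Setting them equal therefore raises each ratio between measured signals by that amount. Then 32 of 35 measured members had a log2 ratio above 0, and *Fzd7*, *Fzd2* and *Dkk3* did not. By the 2-fold rule 27 of the 35 were then higher, beside 78.1% of all measured genes, whose median log2 ratio was 1.63. The lower values given here for *Ctnnb1*, *Lef1*, *Apcdd1*, *Dvl1* and the barrier genes *Cldn5*, *Slc2a1* and *Abcb1a* turn to ratios above 0 in that setting.

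Both arrays carried the transcripts of endothelium. Of 25 pan-endothelial genes, all reached the floor on both arrays, 2 were at least 2-fold higher and 1 was lower in the Prom1+ array, with a median log2 ratio of 0.05. This median was -0.50 with trimmed mean scaling and 1.07 with the hybridization controls set equal. With those controls equal 15 of the 25 genes were higher and 0 lower, beside 78.1% and 2.32% of all measured genes. The medians of the pericyte, fibroblast and microglial lists were below the endothelial one under each of these scalings. By the 2-fold rule, 14 of 17 genes of pericytes and smooth muscle were lower in Prom1+ cells, or 3 once the hybridization controls were equalised (median log2 ratio -1.70, then -0.68), and their summed signal was 1899 array medians in Prom1- and 647 in Prom1+ cells. Of 10 measured microglial genes 8 were lower (0 with those controls equal, where the median was -0.23), with sums over the list of 309 and 131, and of 10 measured fibroblast and meningeal genes 6 were lower, with sums of 600 and 241. Summed signals of the oligodendrocyte list were 442 and 221, and those of ependyma and choroid plexus 442 and 215. Of 8 measured astrocyte genes 2 were higher and 2 lower, with sums of 122 and 131, and of 5 measured neuronal genes 3 were lower, with sums of 71.9 and 82.7. The defining astrocyte genes *Gfap*, *Aqp4* and *Aldh1l1* and the neuronal gene *Tubb3* were under the floor on both arrays. In such bulk RNA, fewer cells of a type and less RNA per cell cannot be told apart.

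Of the 54 members, 27 passed the floor in both populations, 6 in 1 of them and 21 in neither. The share under the floor, 38.9%, was close to the 40.7% of all genes. Of the 33 members measured, 8 (24.2%) were higher in Prom1+ cells by the 2-fold rule, where 28.2% of all measured genes were higher. The other direction held 2 members (6.06%), where 4.77% of all measured genes were lower. Both shares were thus near those of the array. The median log2 ratio was 0.49 over the 33 members and 0.66 over all measured genes. It was -0.050 with trimmed mean scaling, so its sign depends on the scaling.

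**Figure D1:**
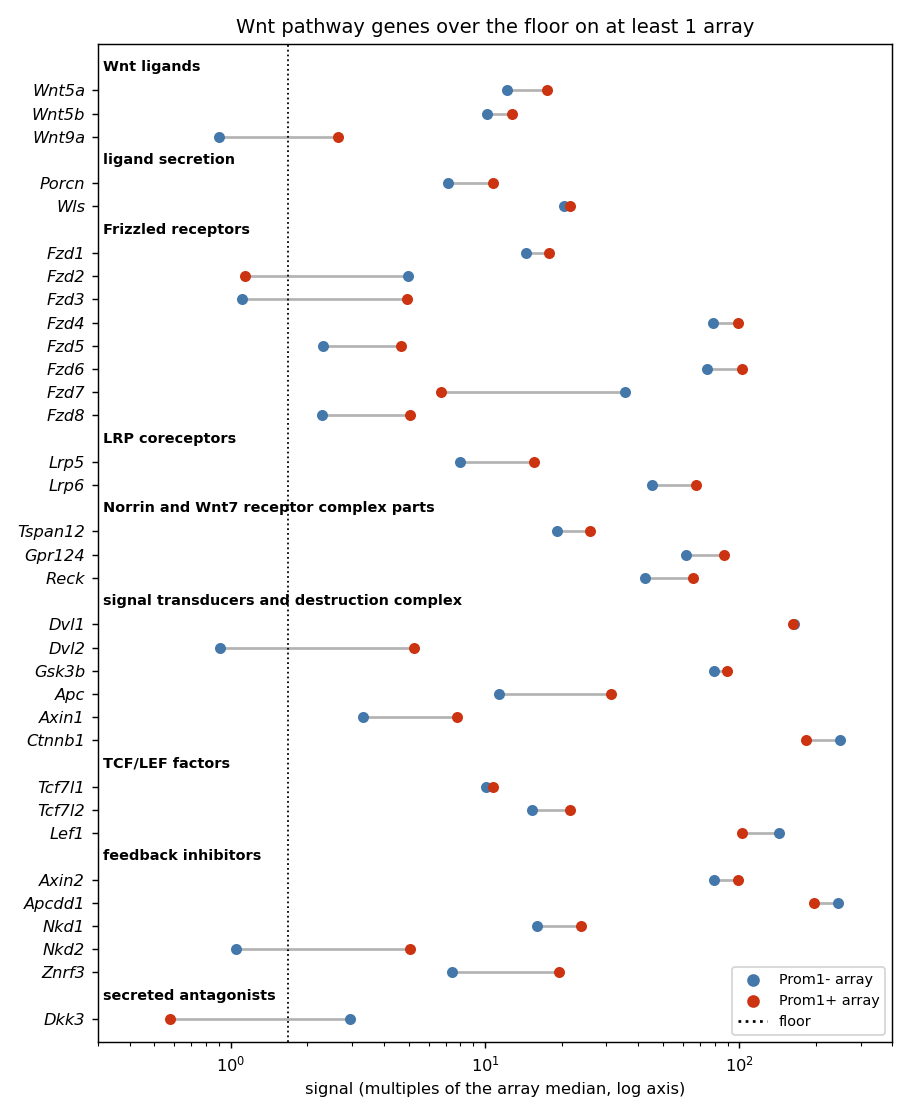
Signal in array medians (log axis) of the 33 members over the floor on at least 1 array, by role, with blue points for the Prom1- array and red points for the Prom1+ array. Most pairs lie close together. *Fzd7* and *Fzd2* lie the other way round from the other Frizzled genes, with the Prom1- array higher.

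Relative to probe sets of like signal, 13 of the 27 members measured on both arrays lay above the local median. Percentile 90 was passed by 1 member, the destruction complex gene *Apc*. Below percentile 10 lay 3 members, the receptor *Fzd7*, the transcription factor *Lef1* and the Wnt transporter *Wls*. The member farthest from its neighbors was *Fzd7*.

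**Figure D2:**
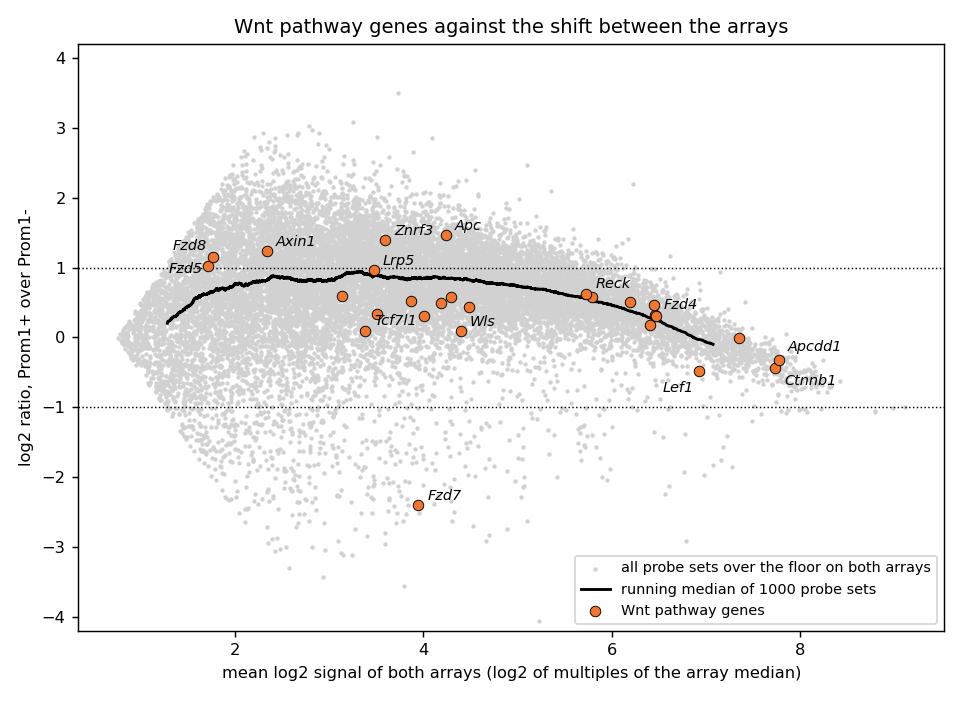
Log2 ratio of Prom1+ over Prom1- against the mean log2 signal of both arrays. Grey points are all 17488 probe sets over the floor on both arrays, the black line is their running median over 1000 probe sets, orange points are the 27 members measured on both arrays, and dotted lines mark 2-fold. The orange points follow the line, and *Fzd7*, at -2.40, lies far below it.

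Promoters are shown for 3 members on which the following results turn: *Fzd7*, which lay farthest from probe sets of like signal among the 27 members measured on both arrays, and *Lef1* and *Axin2*, which are common readouts of beta-catenin. Each line holds the 250 bases before a RefSeq start on the plus strand of GRCm38.p6. Capitals mark the core recognised by TCF and LEF factors, searched as CTTTGA or CTTTGT on both strands, where matches do not share bases with one another. For *Lef1*, the one of 4 starts with the most matches is shown, at chr3:131156044-131156293, and the other starts had 0 matches. *Fzd7* lies at chr1:59481897-59482146 and *Axin2* at chr11:108920099-108920348.

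Fzd7: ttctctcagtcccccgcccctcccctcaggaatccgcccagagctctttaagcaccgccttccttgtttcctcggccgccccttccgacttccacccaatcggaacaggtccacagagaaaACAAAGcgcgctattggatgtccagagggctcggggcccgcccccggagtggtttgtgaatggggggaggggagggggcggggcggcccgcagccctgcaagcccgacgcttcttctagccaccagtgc

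Lef1: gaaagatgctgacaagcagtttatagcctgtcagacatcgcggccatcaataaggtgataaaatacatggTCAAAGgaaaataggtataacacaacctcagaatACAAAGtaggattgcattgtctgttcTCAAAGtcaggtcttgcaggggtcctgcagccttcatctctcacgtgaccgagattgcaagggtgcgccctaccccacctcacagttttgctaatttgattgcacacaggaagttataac

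Axin2: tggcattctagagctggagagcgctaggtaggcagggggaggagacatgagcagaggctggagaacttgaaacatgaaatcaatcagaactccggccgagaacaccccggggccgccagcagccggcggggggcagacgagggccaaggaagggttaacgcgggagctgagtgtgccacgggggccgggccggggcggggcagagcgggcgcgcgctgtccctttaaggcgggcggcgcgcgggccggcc

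*Fzd7* had 1 match, this start of *Lef1* had 3 and *Axin2* had 0. Starts were found for 38 of the listed genes, and 14 of their 48 starts held the core (29.2%), beside 27.6% of all 32851 starts in the table. Such a match is only a description of the letters. The arrays do not show which start of *Lef1* was used.

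Most ligand transcripts were under the floor. Of 12 Wnt ligands on the array, 9 were under it on both arrays, among them *Wnt7a*, at 0.0454 array medians in Prom1- and 0.0409 in Prom1+ endothelium, and *Wnt7b*, at 0.0578 and 0.0288. These are the ligands by which neural cells signal to brain vessels. Norrin (*Ndp*), the other such ligand, was also under the floor, at 0.0278 and 0.179 array medians. The other ligands under it were *Wnt2*, *Wnt2b*, *Wnt3*, *Wnt4*, *Wnt6*, *Wnt10a* and *Wnt11*, with at most 0.702 array medians, the value of *Wnt4* in the Prom1- array.

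The ligands measured on both arrays were *Wnt5a* and *Wnt5b*, known mostly for signals that do not pass through beta-catenin. *Wnt5a* had 12.2 array medians in Prom1- and 17.5 in Prom1+ endothelium, 1.43-fold higher where probe sets of like signal were 1.79-fold higher. Its other 2 probe sets over the floor gave larger differences, 3.97-fold and 2.68-fold, at percentiles 96.8 and 81.6. So the size of the *Wnt5a* difference depends on the probe set. *Wnt5b* had 10.1 and 12.8 array medians and was 1.26-fold higher, while a second probe set was 1.36-fold lower. *Wnt9a* reached the floor only in the Prom1+ array, at 2.63 array medians against 0.901, at least 1.57-fold higher.

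The genes for making and releasing ligands were measured on both arrays. *Porcn*, which attaches the lipid that Wnt proteins need, had 7.16 and 10.8 array medians in the Prom1- and Prom1+ arrays. *Wls*, which carries Wnt proteins to the cell surface, had 20.4 and 21.7. Their log2 ratios were 0.59 and 0.09, and both were below the local median. All 3 probe sets of *Wls* over the floor lay below their neighbors, at percentiles 9.7, 29.6 and 19.3.

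Frizzled receptors differed in both directions. *Fzd4*, the receptor of Norrin, had 78.5 array medians in Prom1- and 98.4 in Prom1+ endothelium, 1.25-fold higher beside a local median of 1.21. *Fzd6*, tied to planar polarity, had 74.6 and 103, 1.38-fold higher. Both differed by less than 2-fold by these probe sets. With the hybridization controls set equal their log2 ratios were 1.35 and 1.48. *Fzd6* was at 1.44 with the mean of all its probe sets. That mean takes in a probe set not read as measured, with 0.0450 array medians in Prom1- and 0.484 in Prom1+ endothelium. The probe sets of *Fzd6* that passed the floor had log2 ratios of 0.46 and 0.43. A second probe set of *Fzd4* had 9.14 and 23.3 array medians and was 2.55-fold higher, at percentile 85.5. *Fzd1* had 14.5 and 17.8 array medians, 1.23-fold higher.

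*Fzd7* had 35.4 array medians in the array labelled Prom1- and 6.69 in that labelled Prom1+, 5.30-fold lower, where probe sets of like signal were 1.79-fold higher at the median. It lay at percentile 0.2 of these. Its second probe set had 0.0206 and 0.0313 array medians, under the floor. When the probe sets of a gene were averaged, this one pulled the mean of *Fzd7* under the floor on both arrays. No ratio was then given, and the lower call was lost. *Fzd2* had 4.96 array medians in Prom1- cells and 1.14, which is below the floor, in Prom1+ cells, a fold of at least 2.96 lower. Its other 2 probe sets were under the floor on both arrays. Transcripts of pericytes and smooth muscle were lower in the same array, with *Pdgfrb* at 57.2 and 19.3 array medians and *Notch3* at 121 and 32.8. Their part in the values of *Fzd7* and *Fzd2* was not tested.

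The Frizzled genes that were higher had small signals. *Fzd5* had 2.31 array medians in Prom1- and 4.68 in Prom1+ endothelium, 2.03-fold higher, and *Fzd8* had 2.28 and 5.07, 2.23-fold higher. Probe sets of like signal were 1.55-fold and 1.57-fold higher, which placed both at percentiles 68.8 and 73.0. *Fzd3* had 1.10 array medians, under the floor, and 4.91, at least 2.93-fold higher. The only probe set of *Fzd3* over the floor on both arrays was 1.15-fold higher, at 2.30 and 2.64 array medians. Others over it only in the Prom1+ array were at least 1.92-fold, 1.76-fold and 1.32-fold higher. *Fzd9* and *Fzd10* were under the floor on both arrays.

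The coreceptors did not stand apart from their neighbors. *Lrp5* had 7.97 and 15.5 array medians in the Prom1- and Prom1+ arrays, 1.95-fold higher beside a local median of 1.84. *Lrp6* had 45.4 and 67.5, 1.49-fold higher beside 1.43. A second probe set of *Lrp6* was 1.41-fold lower, at percentile 6.8.

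The parts by which brain endothelium receives Wnt7 and Norrin were measured on both arrays. *Gpr124* had 61.4 array medians in Prom1- and 87.4 in Prom1+ endothelium, 1.42-fold higher, and *Reck*, its partner in sensing Wnt7, had 42.8 and 65.8, 1.54-fold higher. *Tspan12*, which strengthens the Norrin signal, had 19.2 and 25.9 array medians, 1.35-fold higher. Beside local medians of 1.31, 1.47 and 1.77, the 3 lay at percentiles 66.9, 59.5 and 18.1. All 3 were higher by the 2-fold rule with the hybridization controls set equal, beside 78.1% of all measured genes. None was higher with the trimmed mean, quantile or loess, beside 7.62%, 6.38% and 5.55% of all measured genes.

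Of the 6 measured genes that carry or restrain the signal inside the cell, 3 were higher in Prom1+ cells by the 2-fold rule and 3 differed by less, beside 28.2% higher among all measured genes. With loess, quantile normalization or trimmed mean scaling 1 of the 6 was higher, *Dvl2*. *Apc*, a scaffold of the destruction complex, had 11.4 and 31.3 array medians in the Prom1- and Prom1+ arrays, 2.75-fold higher at percentile 92.7. Its other probe sets over the floor on both arrays were 2.96-fold and 1.26-fold higher, at percentiles 89.7 and 22.7. The other scaffold, *Axin1*, had 3.31 and 7.77, 2.35-fold higher at percentile 71.9. *Dvl2*, which links Frizzled to the destruction complex, had 0.907, under the floor, and 5.25 array medians, at least 3.13-fold higher. The related *Dvl3* was under the floor on both arrays.

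Beta-catenin (*Ctnnb1*) and the kinase *Gsk3b*, which marks it for degradation, differed by less than 2-fold by their main probe sets. *Ctnnb1* had 248 array medians in Prom1- and 182 in Prom1+ endothelium, 1.36-fold lower at percentile 16.8. Its other 2 probe sets went the other way, at 53.8 and 106 (1.97-fold higher, percentile 97.6) and at 6.19 and 31.0 array medians (5.01-fold higher, percentile 99.6). So the direction of *Ctnnb1* cannot be read from this pair of arrays. *Gsk3b* had 79.5 and 89.8, 1.13-fold higher, and all 5 of its probe sets over the floor lay below the local median. *Dvl1* had 164 and 163 array medians by its main probe set and was 2.97-fold higher by the other, at 12.6 and 37.5.

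By their main probe sets, none of the 3 TCF and LEF factors on the array differed by 2-fold, and all lay below the local median. With the hybridization controls set equal, *Tcf7l1* and *Tcf7l2* were higher by the 2-fold rule, beside 78.1% of all measured genes. *Lef1* had 143 array medians in Prom1- and 103 in Prom1+ endothelium, 1.39-fold lower at percentile 4.4. Its second probe set had 7.95 and 13.3 array medians, 1.67-fold higher beside a local median of 1.88, at percentile 38.0. With trimmed mean scaling *Lef1* was at least 2-fold lower, and with the mean of all its probe sets its log2 ratio was 0.13. *Tcf7l1*, often a repressor of Wnt targets, had 10.1 and 10.7 array medians, while its second probe set had 2.11 and 4.63, 2.20-fold higher at percentile 76.8. *Tcf7l2* had 15.3 and 21.6, 1.41-fold higher beside a local median of 1.80.

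The feedback inhibitors, which beta-catenin itself turns on in many tissues, were measured except *Rnf43*. *Axin2*, the most widely used readout of the pathway, had 79.5 array medians in Prom1- and 98.8 in Prom1+ endothelium, 1.24-fold higher beside a local median of 1.21, at percentile 55.4. *Apcdd1*, a membrane inhibitor of Wnt found in brain endothelium, had 245 and 196, 1.25-fold lower at percentile 24.7. *Nkd1*, which binds Dishevelled, had 16.0 and 23.9, 1.49-fold higher beside 1.80. These main probe sets differed by less than 2-fold. With the hybridization controls set equal, though, *Axin2* and *Nkd1* were higher by the 2-fold rule, beside 78.1% of all measured genes.

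Other probe sets of *Apcdd1* spread widely. The 6 over the floor on both arrays had log2 ratios from -0.32 to 2.63, the last at 2.37 and 14.7 array medians (6.18-fold). The 4 of *Nkd1* ran from 0.58 to 1.30, the last 2.47-fold higher.

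The remaining feedback inhibitors were higher in Prom1+ cells by the 2-fold rule. *Znrf3*, a ligase that removes Frizzled from the cell surface, had 7.44 and 19.5 array medians, 2.62-fold higher at percentile 83.8. *Nkd2* had 1.05, under the floor, and 5.06, at least 3.02-fold higher. A second probe set of *Nkd2* was at least 2.10-fold higher, at 0.659 and 3.52 array medians. Its remaining probe sets were under the floor on both arrays, and with the mean of all its probe sets the log2 ratio was 0.13.

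Secreted antagonists were nearly all unmeasured. Of 8, only *Dkk3* reached the floor, at 2.95 array medians in Prom1- cells against 0.578, at least 1.76-fold lower. The LRP inhibitors *Dkk1* and *Dkk2*, the Frizzled-like decoys *Sfrp1*, *Sfrp2*, *Sfrp5* and *Frzb*, and the ligand binder *Wif1* were under it on both arrays. The highest signal among them was 1.20 array medians, of *Sfrp2* in the Prom1- array.

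Several probe sets of 1 gene gave different ratios within the same pair of arrays. Of 123 probe sets of the members, 55 were over the floor on both arrays. In 7 of the 14 genes with at least 2 such probe sets all ratios had the same sign, and in 6 all lay on the same side of the local median. The widest spread was that of *Apcdd1*, 2.95 on the log2 scale, followed by *Ctnnb1* at 2.77, and the narrowest that of *Fzd6*, 0.03.

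**Figure D3:**
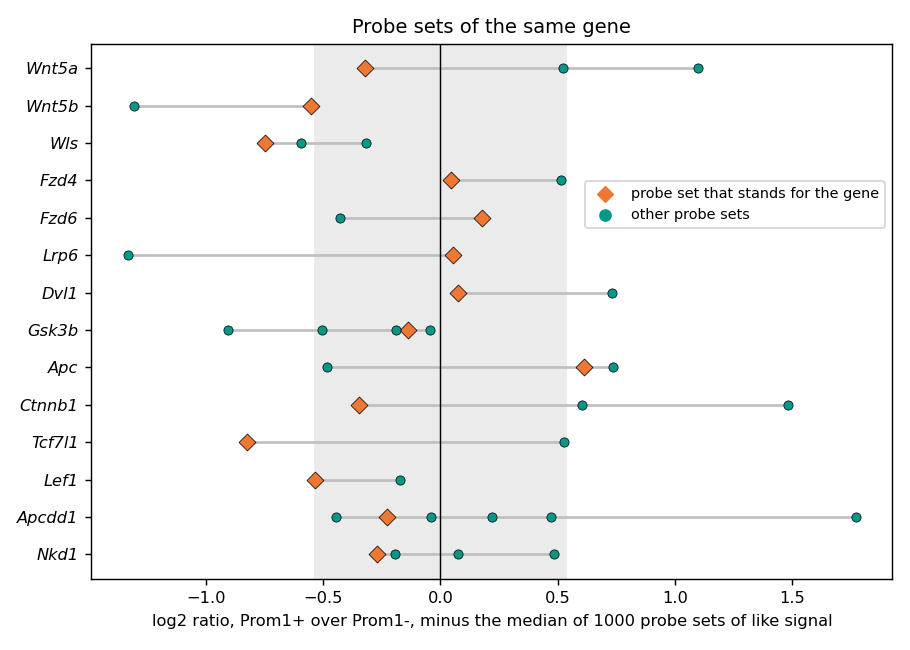
Log2 ratio of Prom1+ over Prom1- minus the median of 1000 probe sets of like signal, for the 14 members with at least 2 probe sets over the floor on both arrays. Diamonds are the probe sets that stand for the gene, circles the others, and the grey band spans the technical SD of 0.54. In *Wls*, *Gsk3b*, *Lef1* and *Wnt5b* all points lie below 0, in *Fzd4* and *Dvl1* all lie above it, and in the other 8 genes they fall on both sides.

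The scaling between the arrays decides how many members pass 2-fold. With loess correction 3 of 33 members were higher, where 5.55% of all measured genes were, namely *Fzd3*, *Dvl2* and *Nkd2*, each a bound. The lower ones were *Fzd7* and *Fzd2*, where 7.87% of all genes were lower. The same 3 genes were higher with quantile normalization and with trimmed mean scaling, beside 6.38% and 7.62% of all genes. With the hybridization controls set equal, 27 of 35 were higher, beside 78.1% of all genes, and the same 2 were lower. Small ratios also changed sign, with 26 of 33 members above 0 at the main scaling and 14 with the trimmed mean. The log2 ratio of *Fzd7* ran from -3.27 to -1.38 over the alternatives that gave one.

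**Figure D4:**
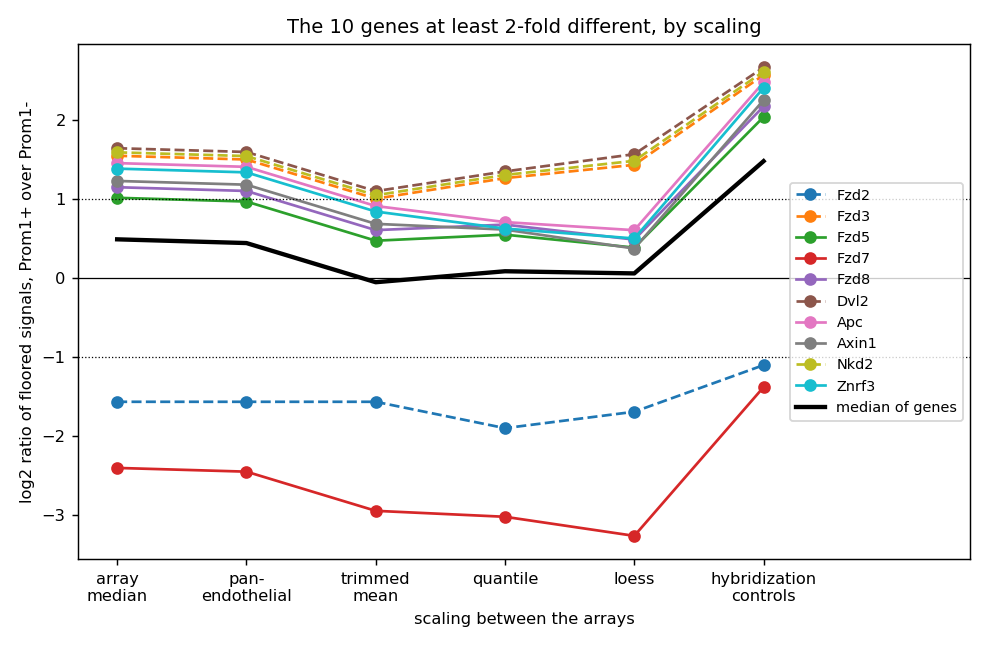
Log2 ratio of floored signals, Prom1+ over Prom1-, of the 10 members at least 2-fold different, under 6 scalings of the arrays. Dashed lines are genes with 1 signal under the floor at the main setting, the thick black line is the median of all measured members, and dotted lines mark 2-fold. *Fzd7* and *Fzd2* lie below -1 under each scaling, while *Fzd5*, *Fzd8*, *Apc*, *Axin1* and *Znrf3* lie under 1 with the trimmed mean, quantile and loess.

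Other genes of the pathway, in 7 lists, were counted in the same way. Of 53 measured, 10 were at least 2-fold higher (18.9%) and 2 lower (3.77%), beside the 28.2% and 4.77% of all measured genes. All 11 other ligands and agonists, among them the R-spondins *Rspo1* to *Rspo4*, were under the floor on both arrays. Of the other receptors, *Lrp4* had 5.72 and 12.6 array medians, 2.20-fold higher, and *Ryk*, a Wnt receptor outside the Frizzled family, had 18.8 and 15.9, 1.18-fold lower. *Notum*, a Wnt deacylase, had 24.9 and 33.7 array medians and was 1.35-fold higher. *Ctnnbip1*, an inhibitor of beta-catenin, was 1.98-fold higher at 12.1 and 23.9.

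Among transducers and nuclear cofactors 5 of 17 measured were higher and none was lower. *Btrc*, part of the ligase that degrades beta-catenin, had 2.49 and 6.35 array medians, 2.55-fold higher. *Bcl9l*, a coactivator, was 2.41-fold higher, *Amer1*, a destruction complex partner, was 2.20-fold higher and the kinase *Csnk1d* was 2.01-fold higher. Their percentiles were 75.3, 78.4, 69.8 and 90.5. The planar polarity list held the widest differences. *Vangl1* had 6.22 array medians in Prom1- and 30.8 in Prom1+ endothelium, 4.95-fold higher at percentile 99.5. *Daam2* had 24.5 and 5.79, 4.24-fold lower at percentile 1.2. *Invs* was 2.28-fold higher, at percentile 70.4.

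Of 10 measured barrier genes tied to beta-catenin in brain endothelium, 1 was higher, 1 was lower and 8 differed by less than 2-fold. Among all measured genes 28.2% were higher and 4.77% lower. With trimmed mean scaling 0 of the barrier genes were higher and 4 lower, beside 7.62% and 7.20% of all measured genes. Under loess 0 were higher and 1 lower, beside 5.55% and 7.87%, and quantile normalization gave the same counts, beside 6.38% and 7.79%. The median log2 ratio of the barrier genes was -0.24 at the main scaling, 0.016 under loess and 0.018 under quantile normalization. With the hybridization controls set equal 3 of 11 were higher and 1 lower, beside 78.1% and 2.32%. The tight junction gene *Cldn5* had 326 array medians in Prom1- and 219 in Prom1+ endothelium, 1.49-fold lower, and the glucose carrier *Slc2a1* had 300 and 191, 1.57-fold lower. The drug exporter *Abcb1a* had 270 and 223, 1.21-fold lower. Beside a local median log2 ratio of -0.098, *Cldn5*, *Slc2a1* and *Abcb1a* lay at percentiles 10.3, 7.2 and 29.5. *Plvap*, which marks leaky endothelium and is repressed by beta-catenin in the brain, had 4.81 array medians and 0.714, under the floor, at least 2.87-fold lower. *Fgfbp1* was 2.07-fold higher, at 1.99 and 4.12. In the list of general targets, 1 of 7 measured was higher, the TGF-beta decoy receptor *Bambi*, at 10.9 and 29.2 array medians (2.68-fold, beside a local median of 1.82). The cell cycle gene *Ccnd1* had 43.4 and 64.4, 1.48-fold higher beside a local median of 1.47.

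**Figure D5:**
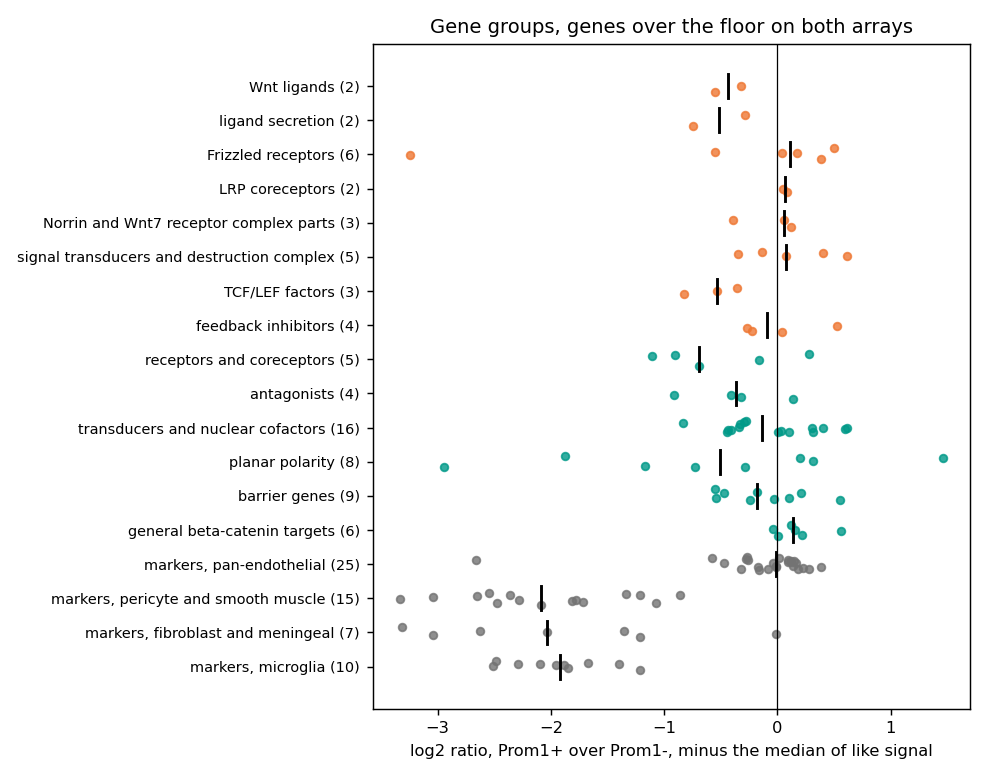
Log2 ratio of Prom1+ over Prom1- minus the median of like signal, for genes over the floor on both arrays, with their number in brackets. Orange points are the members by role, green points the other pathway genes and grey points marker genes, and black bars are medians. Medians of the member groups run from -0.53, for TCF and LEF factors, to 0.11, for Frizzled receptors, and *Fzd7* lies at -3.25. In the groups of Wnt ligands, ligand secretion and TCF and LEF factors all points lie below 0. The markers of pericytes and smooth muscle, of fibroblasts and of microglia have medians of -2.09, -2.04 and -1.92.

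At the largest signals the neighbors of a probe set were mostly dimmer, which limits the local median there. For *Ctnnb1* 86.2% and for *Apcdd1* 88.4% of them were, and for *Cldn5* 95.8%. By loess, which follows the trend to its end, the log2 ratio was -0.04 for *Ctnnb1*, 0.10 for *Apcdd1*, 0.07 for *Axin2* and -0.49 for *Lef1*.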

How the data were processed

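RNA of both sorted populations was amplified, labeled and hybridized by the authors, 1 array per population. Signals were scaled by them to a target of 500, and GeneSpring was used for normalization. MAS5 is named in the submitters' processing notes. In the deposited log2 values both columns have a median of 0, so each value is relative to its own array. Which step set the median was not stated, and detection calls were not used here.

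Log2 values were returned to multiples of the median. The floor, 100 on the target scale, was taken through the mean of both arrays' 2% trimmed means. Of 45101 probe sets, 34958 have 1 gene symbol in the platform annotation and were used, and 34754 of these were named through RefSeq. The probe set with the highest mean signal stood for its gene. With 1 array per population there is no test, and the number of arrays limits the precision. The members, gene lists and rules were chosen with earlier results of these data known. All members were to be named, and of the other lists the genes at least 2-fold different on both arrays and up to 3 of the highest mean signal, of which some are given. The 12 alternatives concern floor, fold, scaling and probe sets. For single values, a move under the SD of 0.54 counted as no move. The steps were tested on simulated data. Promoter letters are from RefSeq, GRCm38.p6, which was otherwise used for names only. Python 3.11.15, numpy 2.4.6, pandas 2.3.3, statsmodels 0.14.6 and matplotlib 3.10.9 were used.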

Additional observations from a re-analysis of the deposited data

How the results depend on the processing

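The count of 8 members higher and 2 lower moved with the floor, the fold and the scaling. With a floor of 200 on the target scale 3 of 31 were higher and 1 lower, beside 26.5% and 3.11% of all genes. With no floor the counts were 14 and 5 of 54, beside 28.2% and 18.6%. At 3-fold they were 2 and 1 of 33, beside 6.6% and 2.37%. With trimmed mean scaling, quantile normalization or loess 3 were higher (beside 7.62%, 6.38% and 5.55% of all genes), and with the hybridization controls set equal 27 (78.1%). With the mean of all probe sets, including those below the floor, 4 of 27 were higher and 0 lower, beside 26.7% and 3.54% of all genes. The median log2 ratio of the members was -0.050 with trimmed mean scaling and 1.48 with the hybridization controls, while that of all measured genes was 0.13 and 1.63. A floor of 50, a fold of 1.5, pan-endothelial scaling and dropping the _x_at and _s_at probe sets kept both counts within 1.5 times. Of the 12 alternatives, 11 kept the lower call of *Fzd7*, 10 the higher calls of *Dvl2* and *Nkd2*, 8 those of *Apc* and *Znrf3*, and 5 that of *Fzd5*. The calls of *Dvl2* and *Nkd2* rest on a signal under the floor in the Prom1- array. A fold of 1.5 keeps each 2-fold call by definition, and all 12 alternatives use the same 2 arrays. These tallies therefore describe the processing alone. No member called at 2-fold changed direction. No replicate could be left out. No paired analysis was possible because each population has 1 array.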
